A study of Mus musculus with 40 samples.

Results

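The collagens, laminins and large matrix glycoproteins were followed in neonatal mouse brain through lipopolysaccharide (LPS) exposure, hypoxia-ischaemia and treatment with the synthetic peptide IDR-1018. Members were taken by name: every gene analysed here with a collagen chain symbol or a laminin chain symbol, plus Fn1, Tnc, Hmcn1, Ccdc80, Hspg2, Nid1 and Nid2. They came to 61 of the 19937 genes that at least 1 probe set names alone. The choice was by name, but it was made with earlier results of these data known. The 61 comprised 7 glycoproteins, 10 laminin chains, 9 basement membrane network collagens, 11 fibrillar collagens, 9 fibril associated collagens, 11 beaded filament and short chain collagens and 4 transmembrane collagens.

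All mice were C57/Bl6 and 9 days old at brain removal, and 8 groups of 5 arrays were compared. In the LPS and hypoxia-ischaemia model, LPS was followed 14 h later by hypoxia-ischaemia, and brains were taken 6 h after that. The left hemisphere was injured and the right was not. These were the groups LPS/HI with IDR-1018, injured and uninjured (peptide given 4 h before LPS), and LPS/HI, injured and uninjured (vehicle given 4 h before LPS). The remaining 4 groups were uninjured brain: LPS with IDR-1018 (peptide 4 h before LPS, removal 6 h after LPS), LPS (removal 6 h after LPS), IDR-1018 alone and Vehicle alone (each removed 10 h after dosing). Injury was always on the left, so side and injury cannot be told apart, and the hemisphere groups differ from Vehicle and IDR-1018 in time and tissue portion as well as treatment. The labels do not say that each array is a separate animal, so p-values measure the spread between these arrays only.

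The extracellular matrix of the brain lies mainly in 2 places. Basement membranes around blood vessels and under the meninges are built from a collagen IV network and a laminin network, joined by nidogens and the proteoglycan perlecan, while fibrillar collagens belong to the meninges and to the walls of larger vessels. The space between neurons and glia holds little fibrillar collagen, and glycoproteins such as tenascin-C are made there by immature glia during development and again after injury. Loss or remodelling of the vascular basement membrane is a known feature of ischaemic injury.

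Array medians lay between 6.99 and 7.13 on the log2 scale, no arrays were identical, and correlations between arrays over genes ran between 0.9865 and 0.9979. Injured LPS/HI array 3 carried both Xist and Y-linked signal, while its uninjured counterpart carried Xist only. The Hmcn1 differences and the count of members between hemispheres are therefore also given without injured array 3. The other hemisphere values keep it, apart from the runs that left out 1 array. The groups were not balanced for sex-linked signal. All 5 LPS arrays carried Xist without Y-linked signal, against 2 of 5 Vehicle arrays, and 2 of 5 LPS with IDR-1018 arrays did so, against 1 of 5 IDR-1018 arrays. The averaged log2 signal of 10 neuronal markers was 11.45 to 11.60 on injured LPS/HI arrays and 11.68 to 11.75 on the uninjured ones. In whole tissue RNA, fewer cells of a type and less RNA per cell cannot be told apart.

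Across the 8 groups the members moved little. The median range of their group means was 0.155 log2 units, against 0.19 for all genes, and 7 members (11.5%) spanned more than 0.3, against 17.0% of all genes. These 7 were Hmcn1 (range 0.78), Tnc (0.65), Col10a1 (0.46), Col12a1 (0.36), Lama5 (0.33), Col4a1 (0.32) and Ccdc80 (0.32). The smallest ranges belonged to Col4a3 (0.05), a chain of the collagen IV of kidney and lung, and to Col11a1 (0.07), a cartilage fibril chain. The median signal of the members was 7.384, against 7.712 for all genes. Their median SD within groups was 0.12, against 0.132. The part of signal level in the smaller ranges was not tested. Probe sets differ in brightness for reasons other than transcript level, so no level is ranked between genes, and every value below is a log2 RMA signal or a difference of such signals.

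**Figure D1:**
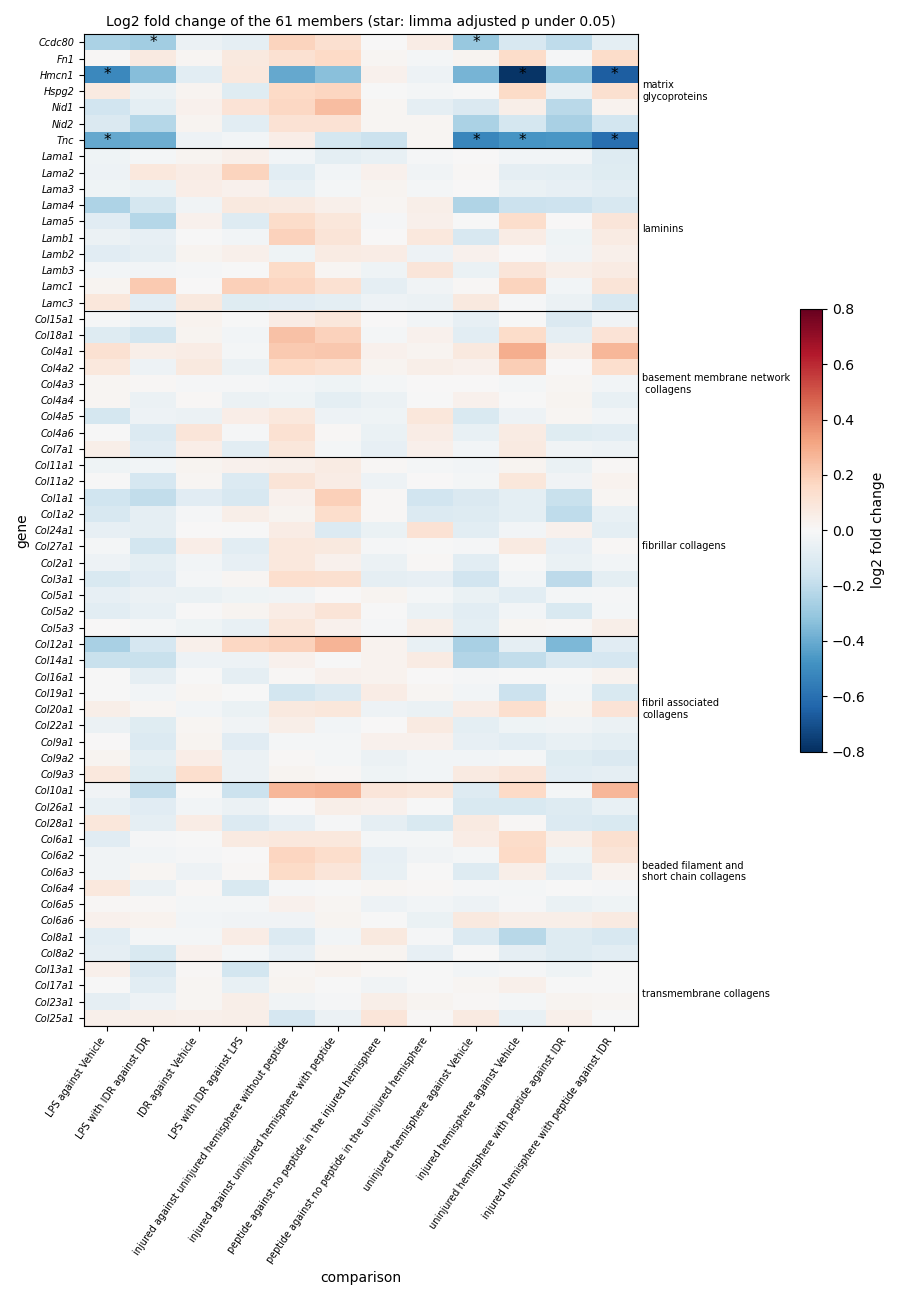
Log2 fold change (colour) of the 61 members (down the page, by structural class) in 12 comparisons (across, with the numerator named first), with a star where limma's adjusted p was under 0.05. Stars appear in the Hmcn1, Tnc and Ccdc80 lines and in no laminin or collagen line.

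Each comparison was tested over all 19937 genes with limma, and a gene was called at an adjusted p under 0.05. Every member called in any of the 12 comparisons was a glycoprotein, and every such call was a lower level. The glycoproteins were named individually, with earlier results of these data known, so their share of the calls is descriptive only. In LPS brains, 2 of 61 members were called, both lower than in Vehicle, where 0.833% of all genes were called and 0.1% were called lower. In LPS with IDR-1018 brains 1 member was called lower than in IDR-1018 brains, where 1.47% of all genes were called and 0.311% were called lower. In the injured hemisphere 2 members were called lower than in Vehicle (8.34% of all genes called, 3.89% lower), and with the peptide 2 were called lower than in IDR-1018 (5.87% of all genes called, 2.35% lower). In the uninjured hemisphere 2 were called lower than in Vehicle (0.436% of all genes called, 0.0251% lower), and with the peptide 0 were called against IDR-1018 (0.201% of all genes called), where 10 had an unadjusted p under 0.05, as did 5.28% of all genes. The comparisons with Vehicle share its 5 arrays, and those with IDR-1018 share the 5 arrays of that group.

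Hmcn1 encodes hemicentin-1, a very long secreted protein of the immunoglobulin superfamily that links adjoining basement membranes in nematodes and fish. It lies on chromosome 1, and 77 probe sets name it alone; the one with the highest mean signal stands for the gene. The 250 bases before its annotated start, from RefSeq on build GRCm38.p6, chr1:150993436-150993685 on the minus strand, are shown beside those of Tnc, chr4:64047016-64047265 on the minus strand (the first of the 2 Tnc windows listed), because these are the members called most often. Capitals mark the CCAAT box (CCAAT) in Hmcn1, and the GC box (GGGCGG) and TATA box (TATAAA) in Tnc, on either strand.
Hmcn1: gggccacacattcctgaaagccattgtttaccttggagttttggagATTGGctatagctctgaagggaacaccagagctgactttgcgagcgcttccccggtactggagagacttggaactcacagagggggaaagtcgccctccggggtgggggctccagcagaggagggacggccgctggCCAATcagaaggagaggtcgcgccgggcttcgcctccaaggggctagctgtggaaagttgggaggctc
Tnc: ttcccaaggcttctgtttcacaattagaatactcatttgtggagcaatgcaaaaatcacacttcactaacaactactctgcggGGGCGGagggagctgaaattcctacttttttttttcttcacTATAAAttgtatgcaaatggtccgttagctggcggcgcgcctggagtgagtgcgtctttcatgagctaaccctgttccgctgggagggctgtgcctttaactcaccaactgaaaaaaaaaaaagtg
The Hmcn1 stretch held 2 CCAAT matches, 1 on each strand, and was 60.0% G or C. The Tnc stretch held 1 GC box and 1 TATA box and was 44.8% G or C, so of the motifs searched no kind was found in both windows.

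Hmcn1 signal on the injured LPS/HI arrays was 7.96, 7.64, 7.69, 8.08 and 7.79, against 8.69, 8.79, 8.62, 8.26 and 8.72 on the Vehicle arrays. Every injured array lay below every Vehicle array. Hmcn1 fell by 0.78 ± 0.11 on the log2 scale (SE, n = 5 each), which is 0.581 of the Vehicle level, with an adjusted p of 0.000426. Without injured array 3 the difference was -0.75 with an adjusted p of 0.00164. With the peptide the injured arrays stood at 7.99, 7.65, 7.52, 8.03 and 8.15, against 8.88, 8.66, 8.43, 8.30 and 8.37 on the IDR-1018 arrays, again without overlap. The difference there was -0.66 ± 0.14 (SE, n = 5 each), with an adjusted p of 0.0122. In all 20 runs that left out 1 array from either comparison, Hmcn1 was called lower.

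Hmcn1 was also called lower in LPS brains at 6 h. The LPS arrays measured 8.10, 8.15, 7.97, 8.27 and 8.01 for Hmcn1, against the Vehicle values given above, and the highest LPS array exceeded the lowest Vehicle array by 0.01. Hmcn1 fell by 0.51 ± 0.09 in LPS brains (SE, n = 5 each; adjusted p = 0.0165), and the adjusted p was 0.0287 with the Xist level as a covariate. The call was lost, at adjusted p between 0.0511 and 0.0593, in 4 of 10 runs that left out 1 array (Vehicle 1, Vehicle 2, LPS 3 or LPS 5). LPS with IDR-1018 arrays measured 7.98, 8.21, 8.30, 8.19 and 8.27, all below the 5 IDR-1018 arrays (the closest pair is equal at 2 decimals), but the difference of -0.34 ± 0.10 (SE, n = 5 each) had an adjusted p of 0.192.

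Between hemispheres without the peptide Hmcn1 was lower on the injured side in 5 of 5 numbered pairs, by differences between -0.71 and -0.15. The uninjured LPS/HI arrays read 8.48, 8.34, 8.03, 8.43 and 7.94, and 1 injured array (8.08) lay above the lowest of them. Treated as unpaired arrays the difference was -0.41 ± 0.12 (SE, n = 5 each), with an adjusted p of 0.0812. Same-numbered hemispheres of the LPS/HI groups deviated together, and with the number as a block the adjusted p was 0.0104. No label states that pairing, and the block fit kept pair 3. Without injured array 3 the unpaired difference was -0.38 (adjusted p = 0.144). With the peptide the unpaired difference was -0.34 ± 0.13 (SE, n = 5 each, adjusted p = 0.249). Hmcn1 was again lower on the injured side in 5 of 5 same-numbered arrays, by differences between -0.57 and -0.10. With the number as a block it was called lower, but same-numbered arrays did not all deviate together there.

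**Figure D2:**
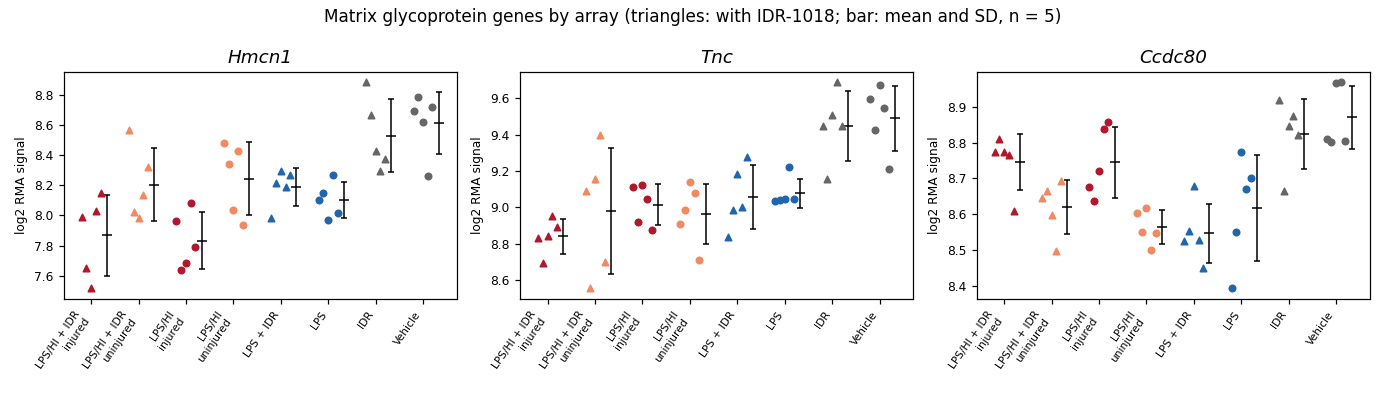
Log2 RMA signal (vertical) of Hmcn1, Tnc and Ccdc80 on each of the 40 arrays, by group (horizontal), with the mean and SD of 5 arrays beside each group. Hmcn1 is lowest in the injured hemispheres, where it lies between 7.52 and 8.15, while IDR-1018 and Vehicle arrays lie between 8.26 and 8.88.

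The other probe sets of Hmcn1 mostly gave the same direction, and the mean over all of them differed less. The mean of the 77 gave -0.47 for the injured hemisphere against Vehicle and -0.42 with the peptide against IDR-1018, -0.32 for LPS against Vehicle (adjusted p = 0.0249) and -0.21 between hemispheres without the peptide (adjusted p = 0.106). In the injured hemisphere against Vehicle, 77 of 77 probe sets had a fold change below 0 (median -0.47, between -0.88 and -0.03), and 63 were called lower, against 4.19% of the 21640 probe sets tested. With the peptide against IDR-1018 it was 77 of 77 below 0 and 50 called, against 2.63% of all probe sets. LPS against Vehicle gave 77 of 77 below 0 and 16 called lower, against 0.162%, and LPS with IDR-1018 against IDR-1018 gave 76 below 0 and 13 called, against 0.351%. Injured against uninjured gave 74 below 0 and 5 called without the peptide, against 0.813%, and 76 below 0 and 3 called with it, against 0.739%. The uninjured hemisphere gave 76 below 0 and 3 called against Vehicle (0.037% of all probe sets), and with the peptide 77 below 0 and 1 called against IDR-1018 (0.0416%). IDR-1018 against Vehicle gave 37 of 77 below 0, a median of 0.00 and 0 called, and 0 of all probe sets were called there. These probe sets read 1 gene on the same arrays and are not independent measurements. The shares over all probe sets include them. In LPS against Vehicle 35 of all probe sets were called lower, 16 of them of Hmcn1. In the uninjured hemisphere against Vehicle 8 were, 3 of them of Hmcn1.

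**Figure D3:**
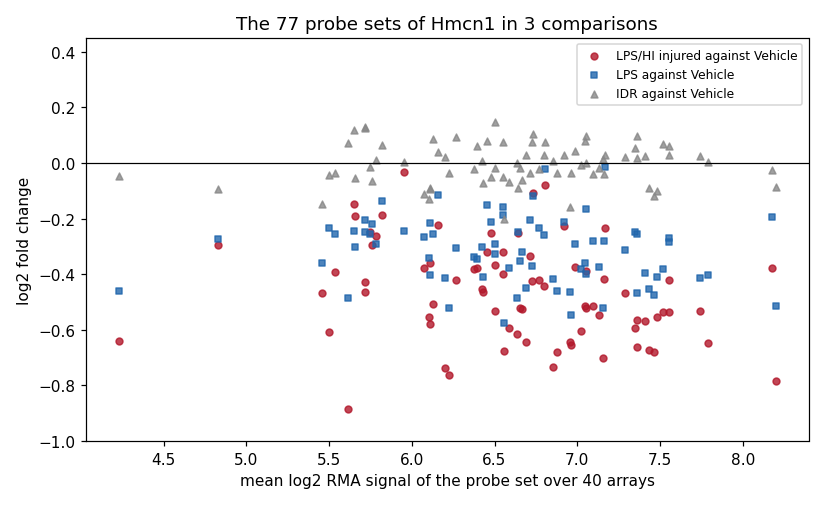
Log2 fold change (vertical) of each of the 77 Hmcn1 probe sets against its mean log2 signal over 40 arrays (horizontal), for LPS/HI injured, LPS and IDR-1018, each against Vehicle. Points of the injured hemisphere and of LPS all lie below 0, and those of IDR-1018 lie on both sides of it, between -0.20 and 0.15.

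Tnc encodes tenascin-C, a hexameric glycoprotein of developing and injured tissue that modulates adhesion to fibronectin. Tnc signal on injured LPS/HI arrays was 9.11, 8.92, 9.12, 9.05 and 8.88, and on Vehicle arrays 9.60, 9.43, 9.67, 9.54 and 9.21. No injured array reached a Vehicle array. Tnc fell by 0.47 ± 0.09 in the injured hemisphere (SE, n = 5 each; adjusted p = 0.00408), which is 0.721 of the Vehicle level. With the peptide, injured arrays read 8.83, 8.69, 8.84, 8.95 and 8.89, against 9.44, 9.16, 9.51, 9.69 and 9.45 on IDR-1018 arrays. These groups did not overlap either, and the difference was -0.61 ± 0.09 (SE, n = 5 each; adjusted p = 0.00169). Both calls were kept in all 20 runs that left out 1 array and with the Xist level as a covariate.

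Tnc was called in neither comparison of the hemispheres. Uninjured LPS/HI arrays read 8.91, 8.99, 9.14, 9.08 and 8.71, among the injured values, and the injured minus uninjured difference was 0.05 with a 95% interval of ± 0.18. With the peptide it was -0.14 ± 0.29, again as a 95% interval. The uninjured hemisphere was itself lower than Vehicle by 0.52 ± 0.10 (SE, n = 5 each; adjusted p = 0.0267), without overlap. That call was kept in 3 of 10 runs that left out 1 array, with adjusted p up to 0.102 in the others, and the adjusted p was 0.108 with the Xist level as a covariate. With the peptide the uninjured arrays spread widely (9.09, 8.56, 9.16, 9.40 and 8.70), and the difference of -0.47 ± 0.14 from IDR-1018 (SE, n = 5 each) had an adjusted p of 0.449.

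In LPS brains Tnc read 9.03, 9.04, 9.05, 9.22 and 9.04, so that 4 arrays lay within 0.02 of each other and LPS array 4 stood above them. The difference from Vehicle was -0.41 ± 0.08 (SE, n = 5 each; adjusted p = 0.0304). It was called in 2 of 10 runs that left out 1 array, and its adjusted p was 0.25 with the Xist level as a covariate, in a comparison where all LPS arrays but not all Vehicle arrays carried Xist. With all 8 groups in 1 fit the adjusted p was 0.0668. LPS with IDR-1018 arrays read 8.84, 8.99, 9.19, 9.00 and 9.27. The difference from IDR-1018 was -0.39 ± 0.10 (SE, n = 5 each, adjusted p = 0.0865). Tnc was called in 1 of 10 runs that left out 1 array. The adjusted p was 0.0229 without IDR-1018 array 2 and up to 0.225 in the others.

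Ccdc80 encodes a secreted matrix-associated protein, known in mouse as a regulator of adipocyte differentiation. It was low in the LPS and uninjured groups and nearer to Vehicle on the injured side. LPS with IDR-1018 arrays read 8.53, 8.55, 8.68, 8.53 and 8.45, against 8.92, 8.66, 8.85, 8.87 and 8.82 on IDR-1018 arrays. The 2 groups overlapped by 1 array each. Ccdc80 fell by 0.28 ± 0.06 (SE, n = 5 each; adjusted p = 0.0428), and the call was kept in 2 of 10 runs that left out 1 array, with adjusted p up to 0.129 in the others.

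Uninjured LPS/HI arrays read 8.60, 8.55, 8.62, 8.50 and 8.55 for Ccdc80, against 8.81, 8.80, 8.97, 8.97 and 8.80 on Vehicle arrays, without overlap. Ccdc80 fell by 0.31 ± 0.06 (SE, n = 5 each; adjusted p = 0.0468), but the call was lost in 10 of 10 runs that left out 1 array, at adjusted p between 0.0564 and 0.172. Injured arrays read 8.68, 8.64, 8.72, 8.84 and 8.86, all above the uninjured ones. The hemispheres differed by 0.18 ± 0.06 (SE, n = 5 each; adjusted p = 0.176). LPS alone gave -0.25 ± 0.08 against Vehicle (SE, n = 5 each, adjusted p = 0.298). Of 6 other settings 1 called it, all 8 groups in 1 fit (adjusted p = 0.0286), and the others gave up to 0.927.

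The nidogens, which bridge the laminin and collagen IV networks, showed hemisphere and LPS differences near the threshold. Nid1 on injured arrays with the peptide read 9.04, 9.23, 9.03, 9.01 and 9.12, against 8.87, 8.88, 8.83, 8.79 and 8.83 on uninjured arrays with the peptide. All 5 injured arrays lay above all 5 uninjured ones. The difference was 0.25 ± 0.06 (SE, n = 5 each), with an adjusted p of 0.0502 in a comparison where 2.5% of all genes and 0 of 61 members were called, and 11 members had an unadjusted p under 0.05, as did 14.4% of all genes. Nid1 was called under 5 of 6 other settings, at adjusted p between 0.0061 and 0.0489, and had 0.0961 with arrays centred on their median. In the runs that left out 1 array Nid1 was called in 0 of 10, at adjusted p between 0.0532 and 0.113. Without the peptide the Nid1 difference was 0.16 ± 0.06 (SE, n = 5 each; adjusted p = 0.246), with the injured array higher in 5 of 5 numbered pairs.

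Nid2 read 7.62, 7.68, 7.75, 7.76 and 7.63 on LPS with IDR-1018 arrays, against 7.95, 7.80, 7.88, 8.02 and 7.92 on IDR-1018 arrays. The groups did not overlap, and the difference of -0.23 ± 0.06 (SE, n = 5 each) had an adjusted p of 0.0797. Nid2 differed from Vehicle by -0.25 ± 0.07 in the uninjured hemisphere (SE, n = 5 each, adjusted p = 0.271). Of 6 other settings 1 called it, all 8 groups in 1 fit (adjusted p = 0.0424), and the others gave up to 0.517. Fn1, which encodes fibronectin, and Hspg2, which encodes perlecan, were called in no comparison. Fn1 differed by 0.15 ± 0.07 (SE, n = 5 each) between the injured hemisphere and Vehicle, and Hspg2 by 0.15 ± 0.08.

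None of the 10 laminin chains was called in any of the 12 comparisons when each was fitted on its own groups. With all 8 groups in 1 fit, Lamc1 was called in LPS with IDR-1018 against IDR-1018 and in the injured hemisphere against Vehicle. Lamb1 was called in that fit between hemispheres without the peptide. In the separate fits the chain with the lowest adjusted p was Lamc1, the gamma chain shared by most laminin trimers. On LPS with IDR-1018 arrays Lamc1 read 9.38, 9.35, 9.26, 9.26 and 9.21, against 9.06, 9.09, 9.09, 9.18 and 9.01 on IDR-1018 arrays, and the same 5 arrays stood against 9.00, 9.05, 9.15, 9.17 and 9.14 on LPS arrays. The peptide-and-LPS group lay above both other groups without overlap. The differences were 0.21 ± 0.05 from IDR-1018 (adjusted p = 0.1) and 0.19 ± 0.06 from LPS (adjusted p = 0.326) (SE, n = 5 each). Lama4, a chain of endothelial laminin, differed from Vehicle by -0.25 ± 0.09 in LPS brains (adjusted p = 0.464), and Lama5, the other endothelial alpha chain, by -0.23 ± 0.06 between LPS with IDR-1018 and IDR-1018 (adjusted p = 0.151) (SE, n = 5 each).

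Among the 9 basement membrane network collagens, Col4a1 and Col4a2 encode the paired chains of the main collagen IV of vessels. Col4a1 read 7.95, 8.05, 7.99, 8.13 and 8.49 on injured arrays, against 7.82, 7.94, 7.73, 7.73 and 7.93 on Vehicle arrays. Col4a2 read 8.29, 8.29, 8.31, 8.29 and 8.49 on the same injured arrays, against 8.16, 8.25, 8.03, 8.09 and 8.18 on Vehicle arrays. Both genes were higher on all injured arrays than on any Vehicle array, and injured array 5 was the highest for each. Col4a1 differed by 0.29 ± 0.10 (adjusted p = 0.077) and Col4a2 by 0.20 ± 0.07 (adjusted p = 0.0832) (SE, n = 5 each), and 4 of 61 members were without overlap in that comparison, where 8.74% of all genes were. Between these groups same-numbered arrays correlated at 0.116 to 0.443, and the same number was the best match in 3 of 5. No label pairs them, so the adjusted p of 0.0334 for Col4a1 with the number as a block is not relied on.

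With the peptide, Col4a1 read 7.91, 8.21, 8.20, 8.27 and 8.18 on injured arrays, against 7.84, 7.91, 7.83, 7.85 and 8.02 on IDR-1018 arrays. Injured array 1 lay among the IDR-1018 values and the other injured arrays lay above them. The difference was 0.27 ± 0.07 (SE, n = 5 each, adjusted p = 0.0542). Col4a1 was called in 2 of 10 runs that left out 1 array. Its adjusted p was 0.0142 without injured array 1, 0.0378 without IDR-1018 array 5 and up to 0.13 in the others. Between hemispheres Col4a1 differed by 0.21 ± 0.10 without the peptide (adjusted p = 0.361) and by 0.22 ± 0.08 with it (adjusted p = 0.202) (SE, n = 5 each). Col18a1, which encodes the collagen whose fragment is endostatin, was higher on the injured side in 5 of 5 numbered pairs without the peptide. These differences lay between 0.08 and 0.50. With the peptide it was also higher on the injured side in 5 of 5 same-numbered arrays, by 0.04 to 0.31.

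In the injured against uninjured comparison without the peptide 0 of 61 members were called, where 2.99% of all genes were, and 8 had an unadjusted p under 0.05, as did 15% of all genes. Without injured array 3 it was again 0 members, where 641 of all genes were called. With the array number as a block, 3 members were called, namely Hmcn1 lower and Col10a1 and Col18a1 higher, as were 2032 of all genes. This block fit kept pair 3. Col10a1 encodes the short chain collagen X of growth plate cartilage. It read 6.46, 6.74, 6.68, 6.77 and 6.73 on injured arrays, against 6.47, 6.42, 6.34, 6.34 and 6.48 on uninjured arrays. All but injured array 1 were above the uninjured arrays. The difference was 0.26 ± 0.07 (SE, n = 5 each, adjusted p = 0.0671), and the adjusted p was 0.0348 with the block. Col10a1 was called in 1 of 10 runs that left out 1 array. The adjusted p was 0.0317 without injured array 1 and up to 0.174 in the others. With the peptide the Col10a1 difference was 0.28 ± 0.07 (SE, n = 5 each; adjusted p = 0.0704).

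**Figure D4:**
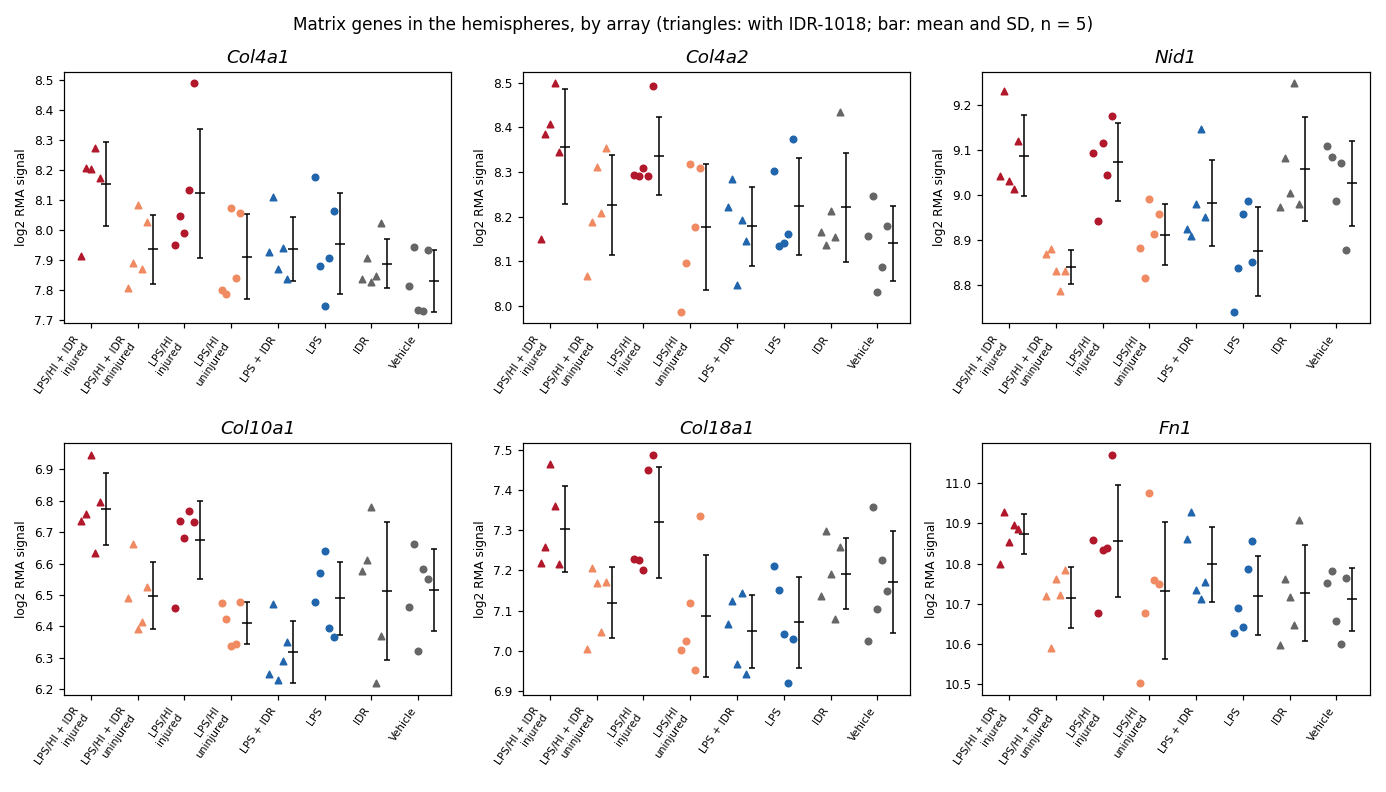
Log2 RMA signal (vertical) of Col4a1, Col4a2, Nid1, Col10a1, Col18a1 and Fn1 on each of the 40 arrays, by group (horizontal), with the mean and SD of 5 arrays. For Nid1 with the peptide all 5 injured arrays lie above the uninjured ones, for Col10a1 without it injured array 1, at 6.46, lies among them, and for Fn1 and Col4a2 without it most injured arrays lie within the uninjured range.

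The collagens that form fibrils and those bound to them were called in no comparison fitted on its own groups. With all 8 groups in 1 fit, Col14a1 was called in the injured hemisphere against Vehicle and Col12a1 between hemispheres with the peptide. Of the 11 fibrillar collagens, 11 had a fold change below 0 in LPS with IDR-1018 against IDR-1018 (median -0.07, where all genes had -0.02), 10 in LPS against Vehicle (median -0.07, all genes -0.02) and 11 in the uninjured hemisphere against Vehicle (median -0.08, all genes -0.03). Col1a1, which encodes the main chain of collagen I, differed by -0.20 ± 0.09, -0.16 ± 0.09 and -0.11 ± 0.10 in these comparisons, in that order, Col1a2, the second chain, by -0.07 ± 0.07, -0.13 ± 0.08 and -0.10 ± 0.09, and Col3a1, the collagen III chain, by -0.09 ± 0.06, -0.12 ± 0.07 and -0.16 ± 0.08 (SE, n = 5 each). In the injured against uninjured hemisphere, 1 of 11 was below 0 without the peptide (median 0.06, all genes 0.01) and 1 of 11 with it (median 0.07, all genes 0.00). None of these single differences passed the test, so the counts describe directions only. The brightest probe sets of the remaining collagen classes were those of Col26a1, Col9a3 and Col25a1, whose fold changes over the 12 comparisons ran between -0.12 and 0.04, between -0.10 and 0.13 and between -0.13 and 0.10, in that order, with no call.

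Col12a1, which encodes a collagen bound to collagen I fibrils, came closest to the threshold among the fibril associated collagens. It read 7.73, 7.51, 7.71, 7.64 and 7.55 on uninjured arrays with the peptide, against 7.97, 7.82, 8.06, 8.02 and 8.07 on IDR-1018 arrays. The groups did not overlap, and the difference was -0.36 ± 0.07 (SE, n = 5 each; adjusted p = 0.0586), or an adjusted p of 0.0496 without IDR-1018 array 2. On injured arrays with the peptide Col12a1 read 8.09, 7.85, 7.81, 7.72 and 8.03. This was 0.27 ± 0.08 above the uninjured arrays (SE, n = 5 each, adjusted p = 0.103, or 0.0465 with all 8 groups in 1 fit). In the uninjured comparison with IDR-1018, 6 of 61 members were lower without overlap, where 0.592% of all genes were.

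IDR-1018 itself was accompanied by no called change in these genes. Against Vehicle, IDR-1018 gave 0 of 61 members and 0% of all genes called, and 0 members had an unadjusted p under 0.05, where 1.61% of all genes did. The member fold changes ran between -0.09 (Col1a1) and 0.13 (Col9a3, a chain of cartilage collagen IX), with a median 95% interval of ± 0.16, and Col4a2 differed by 0.08 ± 0.07 (SE, n = 5 each). LPS with IDR-1018 against LPS gave 0 members and 0% of all genes called, with 3 members at an unadjusted p under 0.05, as were 13.4% of all genes: Lamc1, given above, Lama2, the alpha chain of muscle and vessel laminin (0.18 ± 0.07), and Col10a1 (-0.17 ± 0.07) (SE, n = 5 each). In the injured hemisphere the peptide comparison gave 0 members and 0% of all genes called, with 1 member, Tnc, at an unadjusted p under 0.05, as were 1.39% of all genes. The next smallest p-values there belonged to Col10a1 (0.10 ± 0.08) and to Col25a1, a transmembrane collagen of neurons (0.10 ± 0.08) (SE, n = 5 each). In the uninjured hemisphere it gave 0 members and 0% of all genes called, with 0 members and 1.89% of all genes at an unadjusted p under 0.05, the smallest p-values being those of Col24a1 (0.12 ± 0.07), Col1a1 (-0.15 ± 0.10) and Col4a5 (0.09 ± 0.06) (SE, n = 5 each).

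For the members called elsewhere, the peptide differences came with intervals that leave room for moderate effects. In the injured hemisphere, with peptide minus without, Hmcn1 differed by 0.03 with a 95% interval of ± 0.27, and Tnc by -0.17 ± 0.16. In LPS brains the same differences were 0.09 ± 0.16 for Hmcn1 and -0.02 ± 0.17 for Tnc, again as 95% intervals. The interaction of LPS and peptide called 0 members (0.00502% of all genes), with a smallest adjusted p of 0.86 among members (Lamc1 0.18 ± 0.08, Lama5 -0.14 ± 0.09 and Col9a3 -0.18 ± 0.12, SE), and 1 member and 4.38% of all genes had an unadjusted p under 0.05. The interaction of injury and peptide called 0 members (0% of all genes), with 0 members and 1.81% of all genes at an unadjusted p under 0.05; the smallest p-values were those of Col24a1 (-0.17 ± 0.11), Col4a5 (-0.13 ± 0.09) and Lamb3 (-0.13 ± 0.10) (SE).

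The genes that fold, cut, bind and signal through these proteins were read from separate lists. Of 18 genes for collagen folding and processing, 1 was called higher in the injured than in the uninjured hemisphere without the peptide and 3 with it, where 2.18% and 1.8% of all genes were called higher, and 0 were called lower in either. The gene called in both was Serpinh1, the collagen chaperone HSP47. It read 8.73, 8.38, 8.33, 8.45 and 8.72 on injured arrays, against 8.17, 7.92, 8.26, 7.97 and 8.24 on uninjured arrays, without overlap (0.41 ± 0.10, SE, n = 5 each; adjusted p = 0.0416). With the peptide Serpinh1 differed by 0.47 ± 0.08 (adjusted p = 0.00803), Lox, the collagen crosslinking enzyme, by 0.67 ± 0.10 (adjusted p = 0.00466) and P4ha3, a prolyl hydroxylase subunit, by 0.39 ± 0.09 (adjusted p = 0.0376) (SE, n = 5 each).

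Some matrix receptors and protease inhibitors differed more between hemispheres than any member did. Of 21 receptors 3 were called higher on the injured side without the peptide (Cd44, Itga5 and Sdc1) and 3 with it (Cd44, Itga5 and Itga9), against the same 2.18% and 1.8% of all genes. Cd44, the hyaluronan receptor, read 7.98, 7.82, 7.88, 7.87 and 7.79 on injured arrays, against 7.27, 7.08, 7.11, 7.14 and 7.06 on uninjured arrays, a difference of 0.73 ± 0.06 (SE, n = 5 each; adjusted p = 4.37e-05). Every injured array was above every uninjured one. Itga5, the alpha chain of the fibronectin receptor, differed by 0.59 ± 0.08 (SE, n = 5 each; adjusted p = 0.000801), while Fn1 differed by 0.12 ± 0.09 in the same comparison. Of 12 metalloproteinases and inhibitors 2 were called higher in each hemisphere comparison: Timp1, an inhibitor, by 0.87 ± 0.20 (adjusted p = 0.0309) and 1.17 ± 0.12 (adjusted p = 0.000333) without and with the peptide, and Mmp12, the macrophage elastase, by 0.40 ± 0.09 (adjusted p = 0.0243) and 0.41 ± 0.08 (adjusted p = 0.0161) (SE, n = 5 each).

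**Figure D5:**
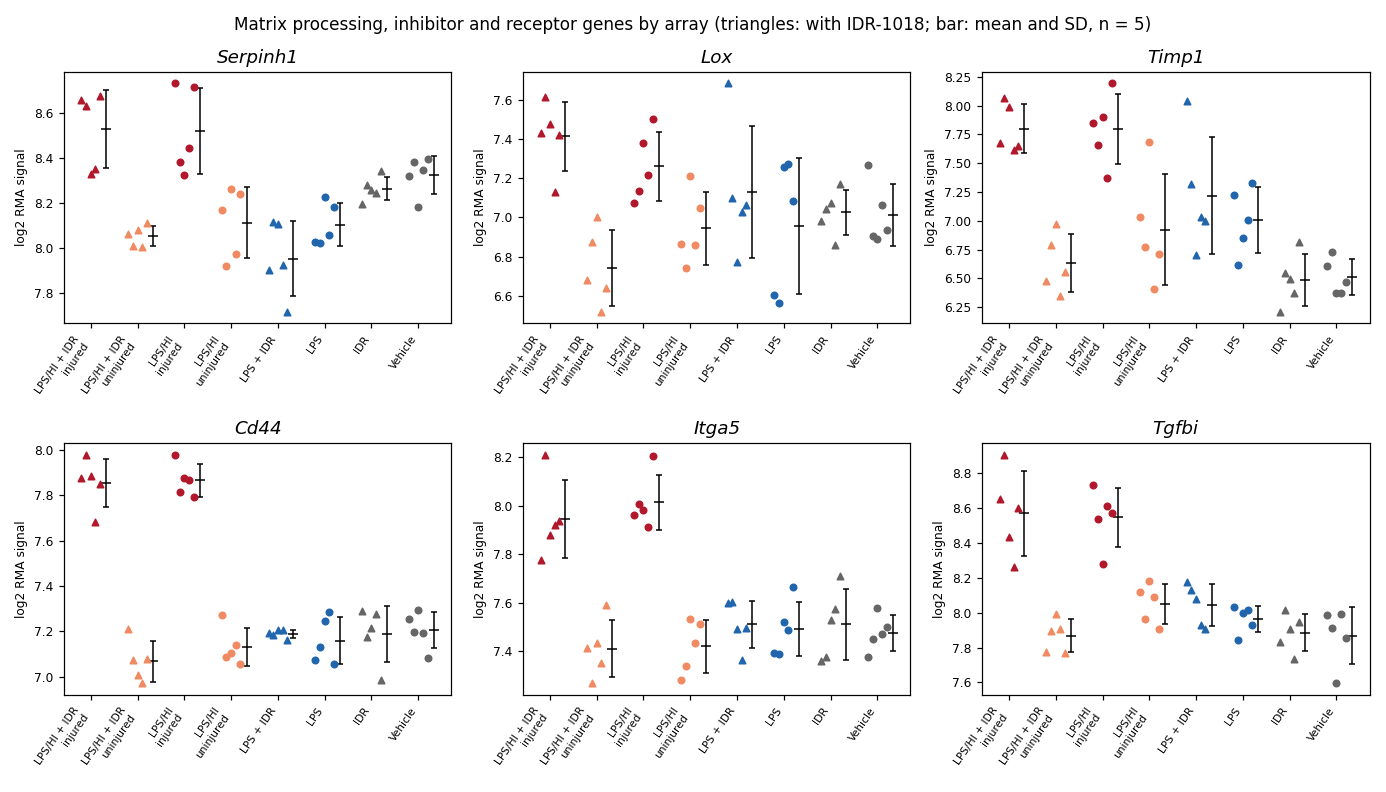
Log2 RMA signal (vertical) of Serpinh1, Lox, Timp1, Cd44, Itga5 and Tgfbi on each of the 40 arrays, by group (horizontal), with the mean and SD of 5 arrays. The Cd44 values of the injured hemispheres, between 7.68 and 7.98, lie above those of every other group, which reach 7.29.

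In LPS against Vehicle 3 of the receptor, protease and inhibitor genes were called, where 0.833% of all genes were, and in LPS with IDR-1018 against IDR-1018 1 was, where 1.47% were. Sdc4, a heparan sulfate receptor for fibronectin, was higher in LPS brains than in Vehicle by 0.66 ± 0.06 (adjusted p = 4.77e-05) and in LPS with IDR-1018 than in IDR-1018 by 0.61 ± 0.06 (adjusted p = 0.000178) (SE, n = 5 each). Timp4 was higher in LPS brains by 0.44 ± 0.07 (adjusted p = 0.00367), and Itga2, the alpha chain of a collagen receptor, fell by 0.41 ± 0.08 (adjusted p = 0.0203) (SE, n = 5 each). None of the 18 folding and processing genes was called in either LPS comparison, and of these 18, 16 had a fold change below 0 in LPS against Vehicle (median -0.05), as had 11733 of the 19937 genes (median -0.02). In LPS with IDR-1018 against IDR-1018 it was 13 of 18 (median -0.04), and 11904 of all genes (median -0.02).

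Markers of several cell types moved in the same comparisons. In LPS against Vehicle 1 of 14 endothelial markers was called lower (Tek, -0.85 ± 0.14, SE) and 1 higher (Slc2a1), where 0.1% of all genes were called lower and 0.732% higher. The averaged endothelial signal was 8.40 to 8.81 on LPS arrays and 8.74 to 8.85 on Vehicle arrays. Of 10 astrocyte markers 2 were called higher (Fgfr3 and Gjb6), and their average was 10.29 to 10.42 on LPS arrays and 10.14 to 10.23 on Vehicle arrays, without overlap. Of 9 microglial markers 2 were called higher, and of 18 meningeal and fibroblast markers 0 were called, with averages of 8.24 to 8.58 on LPS arrays and 8.50 to 8.64 on Vehicle arrays.

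In LPS with IDR-1018 against IDR-1018, where Ccdc80 was called, 4 endothelial markers were lower (Eng, Kdr, Tek and Tie1) and 1 higher, 2 microglial markers were lower and 1 higher, 1 meningeal marker was lower and 1 higher, and 2 astrocyte markers were higher, where 0.311% of all genes were called lower and 1.16% higher. The averages were 8.59 to 8.79 on LPS with IDR-1018 arrays and 8.78 to 8.90 on IDR-1018 arrays for the endothelial list, and 10.32 to 10.46 and 10.11 to 10.26 on the same groups for the astrocyte list. In the uninjured hemisphere against Vehicle 1 astrocyte, 2 endothelial and 3 microglial markers were called higher, and none of those lists had a marker called lower. Of all genes 0.436% were called in that comparison, and 0.0251% were called lower. In the injured hemisphere against Vehicle 5 meningeal and fibroblast markers were called lower and 2 higher, and 3 of 14 pericyte and smooth muscle markers were called lower, where 3.89% of all genes were called lower and 4.45% higher. There 5 endothelial, 4 microglial and 3 astrocyte markers were called higher, and 1 endothelial and 1 microglial marker lower. The averages were 8.25 to 8.58 on injured arrays and 8.50 to 8.64 on Vehicle arrays for the meningeal list, and 7.74 to 7.89 and 7.85 to 7.96 on the same groups for the pericyte list. With the peptide against IDR-1018, 2 meningeal markers were lower and 2 higher, and 0 pericyte markers were called. Of all genes 5.87% were called there, and 2.35% were called lower. The part of these marker differences in the lower Hmcn1, Tnc and Ccdc80 signal was not tested.

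The genes whose 8 group means ran most like those of Col4a1, among 741 candidates that vary across the groups, were Sbno2 (Pearson r = 0.987), Rnf125 (0.982), Myo1e (0.981), Slc15a3 (0.980) and Tlr2 (0.978). For Tnc they were Sostdc1 (0.875), Bub1 (0.869), Trpa1 (0.858), Fmod (0.855) and Mki67 (0.850). These are descriptions over 8 means that share arrays and normalization.

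RefSeq promoter windows (250 bases before to 50 after a start, GRCm38.p6) matched 44 of the 61 members, with 49 windows. The GC box was in 61.22% of member windows and in 35.66% of the 32851 windows of all genes. The CCAAT box was in 32.65% against 37.41%, and the TATA box in 14.29% against 13.62%. The STAT element GAS (TTCNNNGAA) was in 6.12% of member windows and 8.30% of all, the AP-1 element (TGANTCA) in 2.04% and 7.81%, and the SMAD element (GTCTAGAC) in 0% and 0.21%. Both strands were searched, no motif contains another, and a match describes letters only. The windows of Col4a1 and Col4a2, on opposite strands of chromosome 8, share 78 bases (chr8:11312777-11312854). The annotated starts lie 21 bases apart, at 11312826 for Col4a1 (minus strand) and 11312805 for Col4a2 (plus strand). The annotated 5' ends therefore overlap, and the shared bases lie around the starts.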

How the data were processed

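RNA from 40 brain or hemisphere samples, 8 groups of 5, was hybridised to Affymetrix arrays. The deposited values are log2 signals of 34760 probe sets, made by the authors with RMA (package affy, no version given), per the submitters' processing notes. Of these, 21640 probe sets carry 1 gene symbol, 1321 several and 11799 none in the platform annotation. The probe set with the highest mean stood for each of 19937 genes.

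Each comparison was fitted with limma 3.58.1 (R 4.3.3) on its own groups, with Benjamini-Hochberg adjustment over all genes and a threshold of 0.05; interactions used 4 groups. The test was checked on simulated data, but the outcome of that check is not given here. Named members are those called in each comparison (the 3 with the smallest p where fewer than 3 were), the 7 glycoproteins, Col4a1, Col4a2, Col1a1, Col1a2, Col3a1, the brightest of each class and the most variable; Lama4, Col11a1 and Col4a3 were added after their values were seen. Members and lists were chosen with earlier results of these data known. Same-numbered arrays correlated at 0.392 to 0.646 between hemispheres without the peptide, so these numbers were treated as pairs. Between injured hemisphere and Vehicle they correlated at 0.116 to 0.443, and there the number is not taken as a pairing. The labels do not state a pairing. Array number limits precision.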

Additional observations from a re-analysis of the deposited data

Results flagged for a closer look

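In 12 members, each of the 8 groups of 5 arrays was searched for 1 array far from the other 4, and 8 of 96 groups held one, where chance gives about 1 in 20. Tnc read 9.22 on LPS array 4, against 9.03 to 9.05 on the other LPS arrays. Ccdc80 read 8.61 on injured LPS/HI array 5 with IDR-1018, against 8.76 to 8.81. Hspg2 read 7.95 on LPS with IDR-1018 array 2, against 7.74 to 7.80. Col4a1 read 7.91 on injured LPS/HI array 1 with IDR-1018, against 8.17 to 8.27, and without that array its difference from IDR-1018 had an adjusted p of 0.0142. Col4a2 read 8.49 on injured LPS/HI array 5, against 8.29 to 8.31, and 8.43 on IDR-1018 array 5, against 8.14 to 8.21. Col1a2 read 8.04 on uninjured LPS/HI array 4 with IDR-1018, against 8.25 to 8.28, and Col3a1 read 7.67 on IDR-1018 array 4, against 7.77 to 7.80.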

How the results depend on the processing

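None of the 732 values of named members under an alternative reversed its direction. In this balanced design some settings leave a fold change as it is and alter only its p-value. They are all 8 groups in 1 fit, leaving out low-signal genes, and the array number as a block. Those values could not reverse, and many named members were picked by their small p in these data. Hmcn1 and Tnc were called lower in the injured hemisphere, without and with the peptide, under all 6 other settings and in all 20 runs without 1 array. The counts of called members moved as follows. With all 8 groups in 1 fit the count was 2 for LPS with IDR-1018 against IDR-1018 (Lamc1 gained), where 317 of 19937 genes were called. Between hemispheres it was 4 without the peptide (Hmcn1, Col10a1, Col18a1 and Lamb1), where 1431 of all genes were called. With the peptide it was 3 (Nid1, Col10a1 and Col12a1), where 1432 of all genes were called. For the injured hemisphere it was 5 against Vehicle (Col4a1, Col14a1 and Lamc1 gained), where 2216 of all genes were called. With the peptide against IDR-1018 it was 4 (Col4a1 and Col10a1 gained), where 1909 of all genes were called. For the uninjured hemisphere it was 3 against Vehicle (Nid2 gained) and 1 with the peptide (Tnc, with 67 of all genes called). For LPS against Vehicle it stayed at 2, with Ccdc80 gained and Tnc lost. Leaving out the 30% of genes with the lowest signal gave 2 for LPS with IDR-1018 (Nid2 gained), where 289 genes were called. It gave 1 between hemispheres with the peptide (Nid1), where 516 genes were called. For the uninjured hemisphere with the peptide it gave 1 (Col12a1), where 40 genes were called. For the injured hemisphere with the peptide against IDR-1018 it gave 3 (Col4a1 gained). The mean of all probe sets per gene gave 2 for LPS with IDR-1018 (Hmcn1 gained), where 294 of all genes were called. It gave 1 between hemispheres with the peptide (Nid1), where 509 of all genes were called. Centring arrays on their median gave 0 for LPS with IDR-1018 (293 of all genes called) and 1 for the uninjured hemisphere against Vehicle (94). The Xist level as a covariate gave 1 for LPS against Vehicle (86 of all genes called) and 0 for LPS with IDR-1018 (253). It gave 0 for the uninjured hemisphere against Vehicle (53). Between hemispheres with the peptide it gave 2 (Col10a1 and Nid1), where 1085 of all genes were called. The array number as a block gave 0 for LPS with IDR-1018 (250 of all genes called) and 1 for the uninjured hemisphere against Vehicle (89). Between hemispheres it gave 3 without the peptide, where 2032 of all genes were called. With the peptide it gave 2 (Hmcn1 lower and Nid1 higher), where 894 of all genes were called. For the injured hemisphere against Vehicle it gave 3 (Col4a1 gained), where 2290 of all genes were called. Same-numbered arrays correlated at 0.088 to 0.589 between hemispheres with the peptide and at 0.116 to 0.443 between injured hemisphere and Vehicle. In these comparisons the shared number is not taken as a pairing. Without 1 array the count ran from 0 to 2 for LPS against Vehicle and for LPS with IDR-1018, from 0 to 1 between hemispheres without the peptide and for both uninjured hemisphere comparisons, and from 2 to 3 for both injured hemisphere comparisons with controls. The causes were not tested.

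Signal over background is not given in the deposited values, 2 members lay below the low-signal limit, and with 5 arrays a group the median 95% interval of a member's log2 fold change was between ± 0.14 and ± 0.17, before adjustment over all genes. Some larger differences also missed the adjusted threshold, such as -0.41 for Hmcn1 between hemispheres without the peptide.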

Other observations

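Matrix proteoglycans and genes of TGF-beta signalling also differed around the injury. Of 12 matrix proteoglycan genes, 4 were called lower and 1 higher in the injured hemisphere than in Vehicle, where 3.89% and 4.45% of all genes were. The 4 lower ones were small leucine-rich proteoglycans: Ogn (-0.65 ± 0.10, adjusted p = 0.00154), Fmod (-0.55 ± 0.11, adjusted p = 0.00672), Aspn (-0.32 ± 0.09, adjusted p = 0.0375) and Bgn (-0.30 ± 0.07, adjusted p = 0.0146) (SE, n = 5 each). Ogn read 7.69, 7.26, 7.60, 7.26 and 7.65 on injured arrays, against 8.34, 8.00, 8.26, 8.15 and 7.95 on Vehicle arrays, without overlap. Ogn and Fmod are also on the list of meningeal and fibroblast markers, of which 5 of 18 were called lower there. Acan, the cartilage and perineuronal net proteoglycan aggrecan, was higher in the injured than in the uninjured hemisphere by 0.34 ± 0.07 without the peptide (adjusted p = 0.0207) and by 0.35 ± 0.07 with it (adjusted p = 0.0216) (SE, n = 5 each).

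Of 10 genes of TGF-beta signalling and its targets, 1 was called higher in the injured than in the uninjured hemisphere without the peptide and 2 with it, where 2.18% and 1.8% of all genes were. Tgfbi, a secreted target that binds collagen, read 8.73, 8.54, 8.28, 8.61 and 8.57 on injured arrays, against 8.12, 7.96, 8.18, 8.09 and 7.90 on uninjured arrays, without overlap (0.50 ± 0.09, SE, n = 5 each; adjusted p = 0.00739). With the peptide Tgfbi differed by 0.70 ± 0.10 (adjusted p = 0.00344) and Smad3, a signal transducer, by 0.31 ± 0.07 (adjusted p = 0.0319) (SE, n = 5 each). Against Vehicle, 3 were called higher in the injured hemisphere (Tgfbi, Smad3 and Tgfbr2), where 4.45% of all genes were, and Ccn2, a matricellular target, fell by 0.35 ± 0.10 (SE, n = 5 each; adjusted p = 0.0415).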
